A study of Mus musculus with 5 samples.

Results

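The genes described here are 9 genes of transmitter uptake and astrocyte coupling: Slc1a1, Slc1a2, Slc1a3, Glul, Slc6a11, Slc7a10, Gja1, Gjb6 and Aqp4. They were chosen by name, and every row of the gene expression features with one of these symbols was taken, which gave 9 of 32285 gene features in each of 5 libraries. Single nuclei of mouse hippocampus were profiled with a multiome assay, which reads RNA and open chromatin from the same nucleus. There was 1 library for each of 5 groups: wild type, 5xFAD, and 3 lines in which a MAGL knockout was combined with 5xFAD, labelled specific to astrocytes, specific to neurons, or global. 5xFAD mice are a model of familial Alzheimer's disease and carry human transgenes that are driven in neurons by a Thy1 promoter. MAGL, encoded by Mgll, breaks down the endocannabinoid 2-arachidonoylglycerol. All 5 libraries carry the same batch name in the labels. The age and sex of the mice, the number of mice in a library and the Cre lines are not given in the labels. With 1 library in each group there is no replicate error, so no test was made, and every interval below covers counting error only (95%). The libraries that combine 5xFAD with a knockout are called astrocyte, neuron and global MAGL-KO after their labels. Rows of 5 values run from wild type through 5xFAD to the astrocyte, neuron and global knockouts.

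Glutamate released at synapses is cleared mainly by astrocytes through the transporters GLT-1 (Slc1a2) and GLAST (Slc1a3), while EAAC1 (Slc1a1) is known chiefly as a neuronal transporter. Inside astrocytes glutamine synthetase (Glul) turns glutamate into glutamine, which is handed back to neurons. The GABA transporter GAT3 (Slc6a11) and the exchanger Asc-1 (Slc7a10), which carries small neutral amino acids such as glycine and D-serine, are also known from astrocytes. Connexin 43 (Gja1) and connexin 30 (Gjb6) form the gap junctions that join astrocytes into a network, and aquaporin 4 (Aqp4) is the water channel of their endfeet at blood vessels.

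The libraries held 4050 to 7498 nuclei and 101931020 to 159532813 unique molecular identifiers (UMIs, each standing for 1 captured RNA molecule), and 3917 to 7032 nuclei were used after filters. Any pair of libraries shared at most 63 cell barcodes. Nuclei with Xist UMIs and nuclei with Y-linked UMIs were found in every library, in unlike proportions. Excitatory neurons had 1304 Xist and 1859 Y-linked nuclei in 5xFAD but 2009 and 459 in neuron MAGL-KO, and in the other 3 libraries Xist nuclei were the more numerous. Astrocytes had 43 and 20, 17 and 21, 19 and 22, 18 and 5, and 14 and 16. Each ratio of neuron MAGL-KO to 5xFAD thus sets mostly Xist nuclei against a library with a larger share of Y-linked ones. Between 11.8% and 13.6% of nuclei were left without a class name, because a second class scored nearly as high, too few markers were found or excitatory transcripts were high in glia. Nuclei were clustered without the 9 genes, so their levels by class were not set by the choice of nuclei. The astrocyte-like class held 70, 45, 47, 28 and 32 nuclei, and its 17 marker genes summed to 26512 to 29248 CPM (counts per 1000000 UMIs of the class). In the same nuclei 9 neuronal genes summed to 1326 to 1911 CPM, a choroid plexus list to 632 CPM in wild type against 49.6 to 144 CPM elsewhere, and a fibroblast list to 1155 CPM in the library labelled neuron MAGL-KO against 52.1 to 189 CPM elsewhere. An oligodendrocyte list of 11 genes summed to 340 CPM in wild type against 725 to 913 CPM in the 4 libraries labelled 5xFAD, and an endothelial list to 117 CPM in wild type against 0 to 16.6 CPM elsewhere. The part of these other cell types in the results below was not tested. Mgll, the targeted gene, was at 493, 356, 483, 403 and 430 CPM in astrocytes and at 71.2, 75.7, 91.0, 94.2 and 80.3 CPM in excitatory neurons. It was not lower in any library labelled MAGL-KO than in 5xFAD, and whether these UMIs lie in the deleted part of the gene is not known here, so the knockouts are called by their labels. Thy1, whose promoter drives the transgenes, was at 41.5 CPM in wild type excitatory neurons and at 167 to 260 CPM in the 4 libraries labelled 5xFAD.

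By cell class, 8 of the 9 genes were highest in astrocytes and Slc1a1 was highest in committed oligodendrocyte precursors. For each of the 9, the range of the top class over the libraries did not overlap that of the class below it. A class was used only in libraries with at least 20 of its nuclei. UMI levels are not corrected for gene length, so levels are compared between classes and libraries. Where UMIs of a pair of genes are given as a ratio, that ratio is compared between libraries and says nothing of which gene is more abundant.

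**Figure D1:**
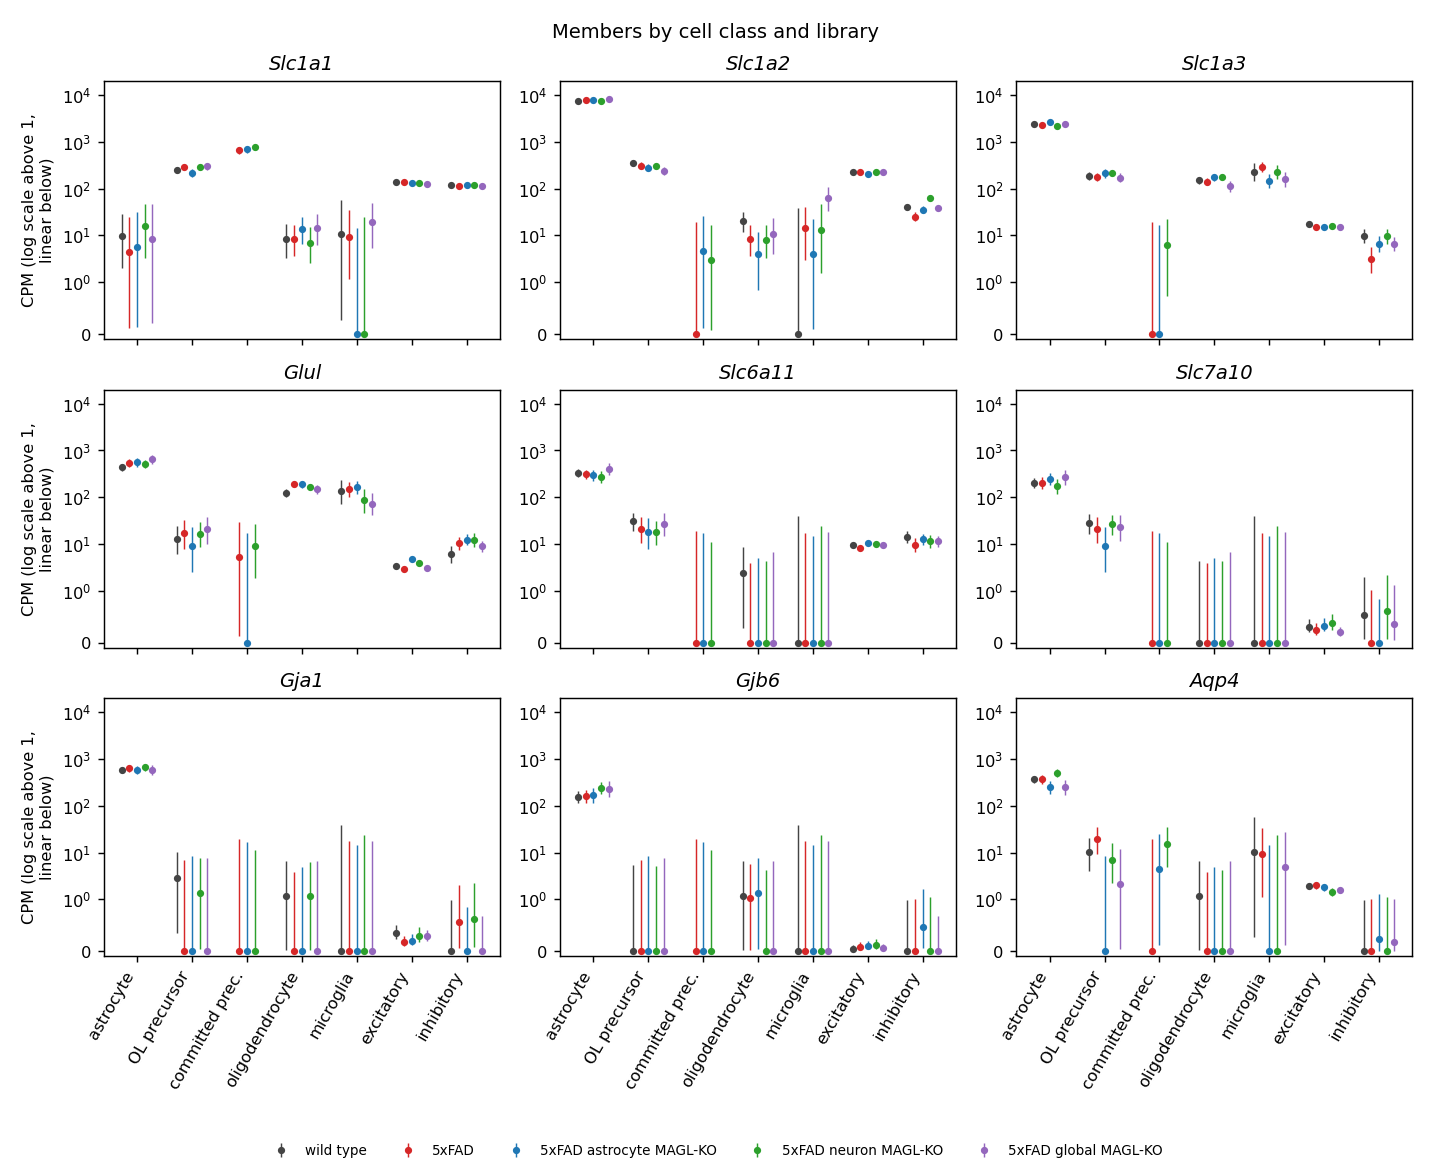
CPM of the class total (vertical axis, log scale above 1 CPM and linear below) of the 9 genes in 7 cell classes (horizontal axis), 1 point for each library with its 95% Poisson interval. Slc1a2 lies between 7394 and 8382 CPM in astrocytes and below 356 CPM in all other classes, while Slc1a1 is highest in committed precursors and below 17 CPM in astrocytes.

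The genes were annotated on GRCm38 (GENCODE vM21). Slc1a2 spans chr2:102658659-102790784 on the plus strand, Slc1a3 chr15:8634124-8710764 on the minus strand and Slc1a1 chr19:28835049-28913960 on the plus strand. Glul spans chr1:153899944-153909723, Slc6a11 chr6:114131241-114249952, Slc7a10 chr7:35186385-35201114 and Gja1 chr10:56377330-56402513, each on the plus strand. Gjb6 spans chr14:57123303-57133611 on the minus strand. Use of strand in the counting is not given in the sources. Reads may therefore be shared with antisense neighbours that overlap Slc1a1 (Gm5822, 4430402I18Rik), Slc1a2 (Gm13872), Glul (Teddm2), Slc6a11 (Gm8132), Slc7a10 (Lrp3) and Aqp4 (AC133525.2), and with same-strand neighbours of Slc1a3 (Gm37310) and Glul (Mir8114). Gja1 and Gjb6 overlapped no other gene.

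The starts of Slc1a1, Slc7a10 and Gjb6 carried listed peaks that differed in accessibility between astrocytes and other classes, low in astrocytes for the first and high for the other two. The bases just before them are therefore shown from RefSeq (GRCm38.p6), 5′ to 3′ on the strand of the gene, with CG pairs in capitals. They lie at chr19:28834885-28835048 (164 bases, plus strand, with 86 bases nearest the RefSeq start left out because they overlap a first exon of GENCODE), chr7:35186135-35186384 (250 bases, plus strand) and chr14:57133612-57133861 (250 bases, minus strand).
Slc1a1: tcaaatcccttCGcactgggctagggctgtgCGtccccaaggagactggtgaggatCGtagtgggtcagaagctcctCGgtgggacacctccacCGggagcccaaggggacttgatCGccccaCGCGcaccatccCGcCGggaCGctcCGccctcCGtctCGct
Slc7a10: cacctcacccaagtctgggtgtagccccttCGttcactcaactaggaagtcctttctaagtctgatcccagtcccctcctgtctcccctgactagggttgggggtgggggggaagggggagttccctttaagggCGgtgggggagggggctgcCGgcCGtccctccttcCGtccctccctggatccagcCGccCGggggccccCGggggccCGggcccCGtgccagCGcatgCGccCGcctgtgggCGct
Gjb6: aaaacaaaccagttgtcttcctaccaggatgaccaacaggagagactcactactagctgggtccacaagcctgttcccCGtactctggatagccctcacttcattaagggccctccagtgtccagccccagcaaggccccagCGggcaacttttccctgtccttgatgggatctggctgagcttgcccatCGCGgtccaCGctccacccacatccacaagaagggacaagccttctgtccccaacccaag
The Slc1a1 and Slc7a10 stretches hold 14 CG pairs each and the Gjb6 stretch holds 5, beside a median of 6 in the 250 bases before the start of 32851 RefSeq promoters. All 3 are free of other annotated genes.

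Of the astrocyte glutamate transporters, Slc1a2 had UMIs in 97.9% to 100% of astrocyte nuclei in each library. Its level was 7442 [7141, 7753], 7739 [7384, 8107], 8055 [7646, 8481], 7394 [7008, 7795] and 8382 [7873, 8914] CPM. Over all nuclei the value was highest in global MAGL-KO, whose interval does not overlap those of wild type and neuron MAGL-KO, and the other intervals overlap it. It was highest there in Xist nuclei too, at 7067, 6882, 8034, 7610 and 9829 CPM. In nuclei with Y-linked UMIs Slc1a2 was at 7938, 8218, 8719, 6825 and 7270 CPM. Global MAGL-KO there lay below wild type, 5xFAD and astrocyte MAGL-KO. In single astrocyte nuclei the median Slc1a2 level was 7358, 7231, 8167, 8087 and 8048 CPM. Together the 9 genes took 1.19%, 1.22%, 1.28%, 1.20% and 1.32% of all astrocyte UMIs.

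Slc1a3 was at 2371, 2273, 2674, 2208 and 2433 CPM in astrocytes, highest in astrocyte MAGL-KO. It was highest there in Xist nuclei too, at 2409, 2030, 2929, 2230 and 2433 CPM. In nuclei with Y-linked UMIs it was at 2015, 2524, 2495, 2519 and 2813 CPM, highest in global MAGL-KO. The number of Slc1a2 UMIs for each Slc1a3 UMI was 3.14 [2.89, 3.42], 3.41 [3.09, 3.76], 3.01 [2.72, 3.35], 3.35 [3.00, 3.75] and 3.45 [3.02, 3.94]. These 5 within-library ratios have overlapping intervals. Slc1a1 gave only 3, 1, 1, 3 and 1 UMIs in all astrocyte nuclei of a library, at or under the floor of 3 counts, and was found in 2.13% to 7.14% of them.

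Glul, which makes glutamine from the glutamate that astrocytes take up, was at 435 CPM [364, 515] in wild type and at 539, 555, 521 and 645 CPM [510, 805] in the 4 libraries labelled 5xFAD. The wild type value was the lowest of the 5, and its interval overlaps that of the highest by a narrow margin. The oligodendrocyte marker sum in these nuclei was likewise lowest in wild type (340 CPM against 725 to 913), and its part in the Glul values was not tested. Slc6a11, the GABA transporter, was at 334, 309, 299.6, 274 and 405 CPM. Slc7a10 was at 204, 204, 249.6, 172 and 265 CPM. Both were highest in global MAGL-KO and lowest in neuron MAGL-KO, and the intervals of all 5 libraries overlap.

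Gja1 was at 580.5, 634, 583, 672 and 579 CPM, with UMIs in 80.9% to 96.4% of astrocyte nuclei. Gjb6 was at 156, 161, 172, 242 and 232 CPM, with UMIs in 40.4% to 60.7% of them. Over all nuclei Gjb6 was higher in neuron and global MAGL-KO than in the other 3 libraries. This order held in Xist nuclei, at 153, 132, 113, 283 and 314 CPM. It did not hold in nuclei with Y-linked UMIs, at 121, 177, 223, 122 and 136 CPM, where both lay below 5xFAD and astrocyte MAGL-KO. The values of neuron and global MAGL-KO there rest on 3 UMIs in 5 nuclei [25.1, 356] and 8 UMIs in 16 nuclei [58.5, 267], the first at the floor of 3 counts, and both intervals include the 5xFAD value. Gja1 UMIs for each Gjb6 UMI came to 3.73 [2.70, 5.24], 3.95 [2.73, 5.82], 3.39 [2.25, 5.23], 2.78 [1.96, 4.00] and 2.50 [1.59, 4.03], with overlapping intervals throughout. UMIs of both connexins were seen together in 31, 22, 18, 17 and 19 nuclei, Gja1 alone in 30, 19, 20, 10 and 10, and Gjb6 alone in 1, 2, 1, 0 and 0. At a median of 3334.0 to 4542.5 UMIs in an astrocyte nucleus, a nucleus without a UMI of a gene is not shown to lack it.

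Aqp4, the endfoot water channel, differed between libraries by more than the uptake genes did. Its levels were 370 [305, 444], 374 [299, 462], 249.6 [182, 334], 505 [408, 618] and 248 [167, 354] CPM, from 114, 86, 45, 94 and 30 UMIs. The library labelled neuron MAGL-KO stood above those labelled astrocyte and global MAGL-KO, with no overlap of the intervals. The share of nuclei with an Aqp4 UMI followed the same order of libraries at its ends, with 75.0% in neuron MAGL-KO and 50.0% in global MAGL-KO. In Xist nuclei Aqp4 was at 407, 422, 251, 437 and 294 CPM, and in nuclei with Y-linked UMIs at 241, 261, 223, 1016 and 254 CPM. In Xist nuclei alone the intervals of neuron [307, 602], astrocyte [154, 388] and global MAGL-KO [165, 485] overlap. The value of 1016 CPM rests on 5 nuclei with 25 UMIs, and in the nuclei with Y-linked UMIs the libraries labelled astrocyte and global MAGL-KO lay close to 5xFAD.

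To compare libraries, a gene was counted as past the fold when its CPM ratio was at least 1.5 or at most 0.667, among genes with at least 50 UMIs over both libraries of a comparison. In astrocytes 8 of the 9 genes reached that count in all 4 comparisons, and Slc1a1 did not in any. Of the 8, none was past the fold between 5xFAD and wild type, beside 10.6% of all genes tested. Their median log2 ratio was 0.03 beside -0.00 for all genes. The highest was Glul with a log2 ratio of 0.31 [-0.05, 0.67] and the lowest Slc6a11 with -0.11. The glutamate transporters were at 0.06 [-0.03, 0.15] for Slc1a2 and -0.06 [-0.23, 0.10] for Slc1a3, and Slc7a10, Aqp4 and Gjb6 were at -0.00, 0.02 and 0.05. For Glul the direction turned with the nuclei used: 417 CPM in wild type against 277 in 5xFAD among Xist nuclei, and 386 against 740 CPM among nuclei with Y-linked UMIs. The log2 ratio among Xist nuclei was -0.59, past the fold the other way.

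The 3 libraries labelled MAGL-KO were each set against the same 5xFAD library, so these comparisons share it and are not independent. For astrocyte MAGL-KO none of the 8 genes was past the fold, beside 18.7% of all genes, with medians of 0.05 and -0.07. Aqp4 lay just inside the fold with a log2 ratio of -0.58 [-1.14, -0.05], and Slc1a3 was at 0.23 [0.05, 0.42]. The interval spanned 0 for the other 6 genes. The Slc1a3 ratio was 0.53 [0.23, 0.83] in Xist nuclei and -0.02 [-0.30, 0.26] in nuclei with Y-linked UMIs. For neuron MAGL-KO 1 of the 8 genes was past the fold, beside 17.2% of all genes, with medians of -0.04 and -0.04. This was Gjb6, with a log2 ratio of 0.59 [-0.07, 1.26], and Aqp4 followed with 0.43 [-0.00, 0.87]. For global MAGL-KO 1 of the 8 was past the fold, beside 14.9% of all genes, with medians of 0.19 and -0.02. This was Aqp4, with a log2 ratio of -0.59 [-1.24, 0.02]. It stayed past the fold in 4 of 11 alternatives and was just inside it, at -0.57, with TMM scaling (trimmed means). Slc6a11, Slc7a10 and Gjb6 had log2 ratios of 0.39, 0.37 and 0.53, all with intervals that span 0, and Slc1a2 was at 0.12 [0.00, 0.23]. The direction for Slc1a2 turned with the nuclei used, at 0.51 [0.33, 0.69] in Xist nuclei and -0.18 [-0.35, -0.01] in nuclei with Y-linked UMIs. The counts past the fold were thus no larger a share of the genes than the background in any of the 4 comparisons. Without nuclei holding both Xist and Y-linked UMIs, 1 gene in place of 2 was past the fold over the 4 comparisons, and among nuclei with Y-linked UMIs the log2 ratio of Gjb6 in neuron MAGL-KO was -0.54 [-2.95, 1.25], from 3 UMIs against 17.

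Split by kind of nuclei, further ratios reached 1.5-fold in either direction. The filter of at least 50 UMIs applied to all nuclei of the class, not to each kind. Several of the split ratios rest on fewer UMIs than that. The share of all genes past the fold was not counted within a kind. Glul, inside the fold over all nuclei, was at 603, 602 and 471 CPM in astrocyte, neuron and global MAGL-KO among Xist nuclei, all above the 277 CPM of 5xFAD, with log2 ratios of 1.12 [0.36, 1.94], 1.12 [0.36, 1.93] and 0.77 [-0.14, 1.68]. Among nuclei with Y-linked UMIs Glul was at 459.6, 772 and 779.6 CPM against 740.5 CPM in 5xFAD, with log2 ratios of -0.69, 0.06 and 0.07. Slc6a11 in global MAGL-KO was at 549 CPM against 224 in Xist nuclei, a log2 ratio of 1.29 [0.37, 2.25], and at 339 against 323 CPM in nuclei with Y-linked UMIs, 0.07. Slc7a10 in Xist nuclei was at 1.10 [0.07, 2.22] in astrocyte and 0.99 [-0.18, 2.20] in global MAGL-KO. In nuclei with Y-linked UMIs it was at -0.22 and 0.05. Gjb6 in Xist nuclei was at 1.10 [-0.01, 2.33] in neuron and 1.25 [0.02, 2.55] in global MAGL-KO. Aqp4 in Xist nuclei was at -0.75 [-1.63, 0.10] in astrocyte MAGL-KO. In nuclei with Y-linked UMIs of neuron MAGL-KO, Slc6a11 was at -0.99 [-2.96, 0.51] from 4 UMIs and Slc7a10 at -2.50 [-7.86, 0.13] from 1 UMI. Aqp4 was there at 1.96 [1.10, 2.82] from 25 UMIs. The 5xFAD values behind these ratios come from 17 Xist nuclei and 21 Y-linked nuclei.

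**Figure D2:**
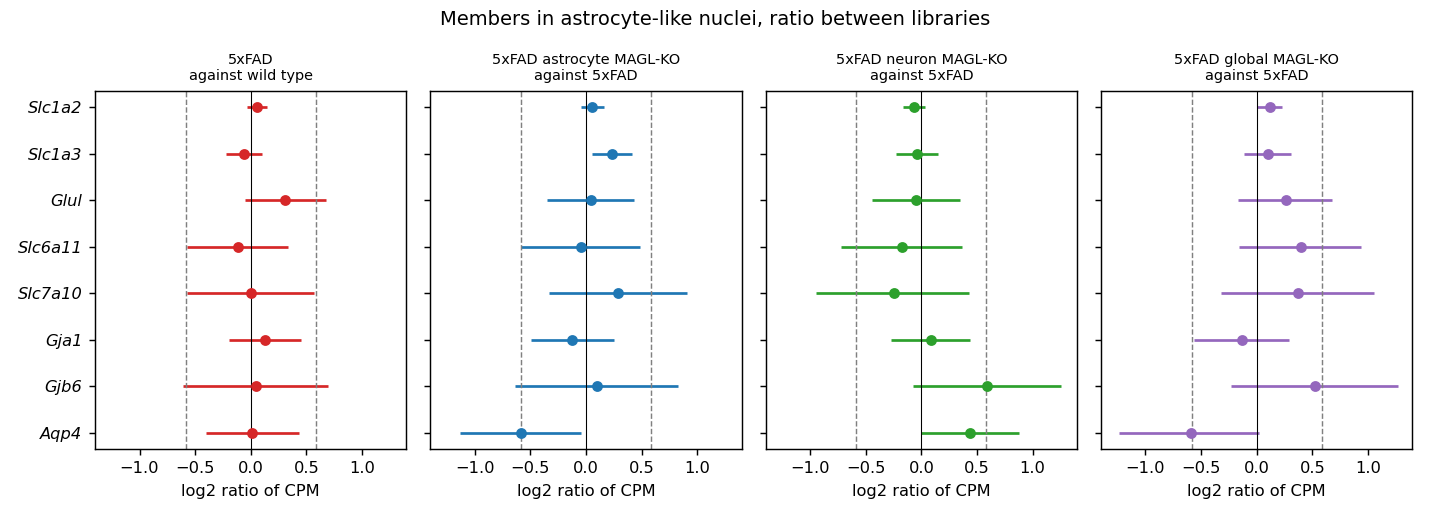
Log2 ratio of CPM (horizontal axis) of the 8 genes that passed the count filter in astrocyte-like nuclei, for 5xFAD against wild type and each library labelled MAGL-KO against the same 5xFAD library. Bars are 95% counting intervals and dashed lines mark 1.5-fold; only Gjb6 in neuron MAGL-KO (0.59) and Aqp4 in global MAGL-KO (-0.59) lie past them, both with intervals that span 0.

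The other genes of these pathways were taken from 5 lists with 54 genes, none of them among the 9. Between 13 and 17 of the 54 passed the count filter in astrocytes, and none of the 10 genes of the gap junction and pannexin list did. Between 5xFAD and wild type 0 of 17 were past the fold upward and 2 downward, beside 10.6% of all genes in either direction (103 up and 115 down), with a median log2 ratio of -0.12 beside -0.00. The highest were Mlc1 at 0.55 and Hepacam at 0.30, which encode partner proteins of astrocyte endfeet. In astrocyte MAGL-KO none of 14 genes was past the fold, beside 18.7% of all genes, and the median was 0.06 beside -0.07. Glud1, a glutamate dehydrogenase gene, was at 0.42 [0.05, 0.79], and the lowest were Slc7a11 at -0.42 and the dystrophin gene Dmd at -0.39 [-0.63, -0.15].

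In neuron MAGL-KO 1 of 13 genes was past the fold upward and 1 downward, beside 17.2% of all genes (117 up and 156 down), with a median of 0.00 beside -0.04. Slc7a11, the cystine/glutamate exchanger that carries glutamate out of the cell, had the highest log2 ratio, 0.89 [0.50, 1.28], and Hepacam the lowest, -0.81 [-1.38, -0.26]. In global MAGL-KO 3 of 13 genes were past the fold upward and none downward, beside 14.9% of all genes (87 up and 108 down), with a median of 0.11 beside -0.02. The highest were Slc7a11 at 1.10 [0.69, 1.52] and Abat, which encodes the enzyme that breaks down GABA, at 0.71. The lowest were Mlc1 at -0.41 and the glycine decarboxylase gene Gldc at -0.34. Slc7a11 was at 519, 408, 305, 758 and 877 CPM in the 5 libraries, so both libraries with the high values exceed wild type as well as 5xFAD. In neuron MAGL-KO 3 nuclei held 73 of its 141 UMIs, and in global MAGL-KO 3 nuclei held 38 of 106. Slc7a11 UMIs were found in 65.7%, 66.7%, 46.8%, 78.6% and 78.1% of astrocyte nuclei.

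In oligodendrocyte precursors (116, 82, 87, 113 and 90 nuclei) the 3 Slc1a transporters were all detected. Slc1a1 was at 248, 291, 216, 285 and 299 CPM, with UMIs in 63.2% to 79.3% of nuclei. Slc1a2 was at 355, 311, 280.5, 298.5 and 242 CPM and Slc1a3 at 187, 180.2, 214, 217 and 170.3 CPM. For Slc1a2 the median of astrocytes was 25.9 times that of precursors. The connexins were near 0: Gja1 gave 3 UMIs over the 5 libraries and Gjb6 gave 0 in each, where 3 counts would be 4.15 to 6.90 CPM. The precursors thus held the transporters without the connexins. Slc6a11 lay between 18.0 and 30.4 CPM, Slc7a10 between 9.20 and 27.5 CPM, Glul between 9.20 and 21.0 CPM and Aqp4 between 0 and 19.2 CPM.

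Only Slc1a1, Slc1a2 and Slc1a3 passed the count filter in precursors, and none was past the fold in any comparison. The share of all genes past it was 8.39% for 5xFAD against wild type, 11.6% for astrocyte MAGL-KO, 12% for neuron MAGL-KO and 9% for global MAGL-KO. The medians of the 3 genes were -0.05, -0.15, -0.03 and -0.08, beside 0.00, -0.01, 0.01 and -0.00 for all genes. Slc1a1 in astrocyte MAGL-KO was at a log2 ratio of -0.43 [-0.82, -0.05] and Slc1a2 in global MAGL-KO at -0.36 [-0.72, -0.01]. The other 10 intervals spanned 0.

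Committed precursors, which express Bcas1, Enpp6 and other genes of the step between precursor and oligodendrocyte, had the highest Slc1a1 level of any class. In the libraries with 20 or more such nuclei it was at 656 CPM in 5xFAD (125 UMIs, 20 nuclei), 688 in astrocyte MAGL-KO (151 UMIs, 28 nuclei) and 775 in neuron MAGL-KO (254 UMIs, 31 nuclei). Slc1a1 UMIs were found in 95%, 100% and 100% of these nuclei, beside 2.13% to 7.14% of astrocytes. The smaller sums of wild type (19 nuclei) and global MAGL-KO (12 nuclei) gave 701 and 707 CPM. The median was 2.42 times that of oligodendrocyte precursors, 5.17 times that of excitatory neurons and 82.6 times that of mature oligodendrocytes, where Slc1a1 was at 6.91 to 14.6 CPM. Along this lineage Slc1a1 was thus already the second highest of the classes in the precursors, higher still in the committed step and low in mature oligodendrocytes.

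Slc1a2 and Slc1a3 were nearly absent from committed precursors in the libraries with 20 or more nuclei. Slc1a2 gave 0, 1 and 1 UMIs and Slc1a3 gave 0, 0 and 2. In wild type 34 Slc1a2 UMIs came from 3 of 19 nuclei, together with 16 Slc1a3 UMIs. In mature oligodendrocytes Slc1a3 was again at 111 to 176 CPM, while Slc1a2 was at 4.09 to 20.2 CPM. The order of the classes therefore differed between the genes: Slc1a2 was highest in the precursors of the lineage, Slc1a1 in the committed step, and Slc1a3 was lowest in the committed step. Thinned to 1000 UMIs a nucleus, Slc1a1 was found in 45.0% to 51.6% of committed precursors and 18.1% to 32.9% of oligodendrocyte precursors, which is the same order.

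**Figure D3:**
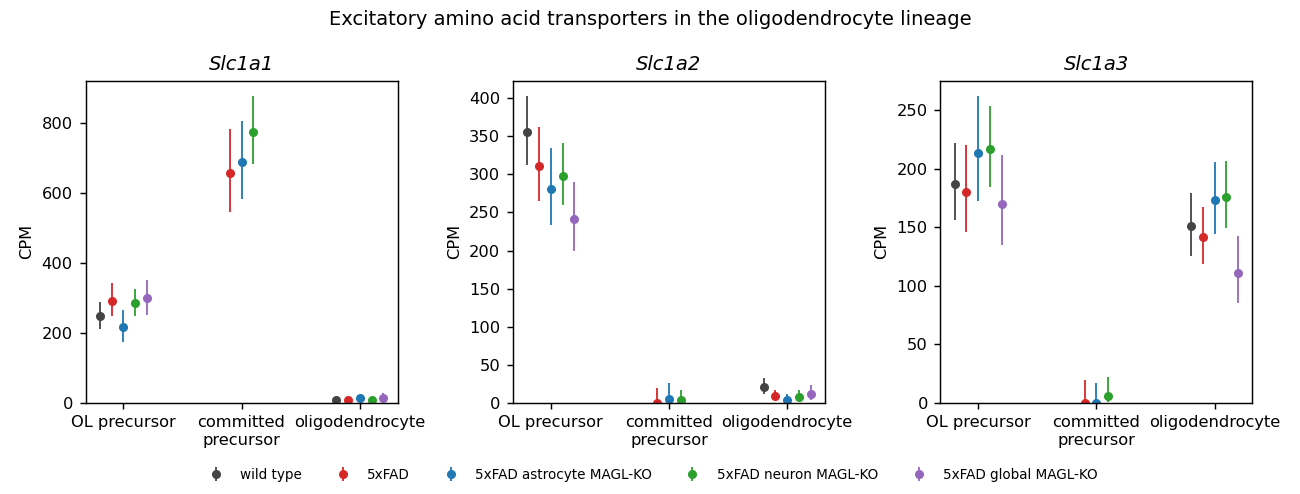
CPM (vertical axis, linear) of Slc1a1, Slc1a2 and Slc1a3 in oligodendrocyte (OL) precursors, committed precursors and mature oligodendrocytes, 1 point for each library with at least 20 nuclei and its 95% Poisson interval. Slc1a1 is at 656 to 775 CPM in committed precursors and 6.91 to 14.6 CPM in oligodendrocytes, while Slc1a3 is at most 6.10 CPM in committed precursors.

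In excitatory neurons (2739 to 5391 nuclei) Slc1a1 lay between 126 and 139 CPM and Slc1a2 between 207 and 228 CPM, in 76.3% to 82.7% and 72.6% to 80.6% of nuclei. Slc1a3 was at 15.0 to 17.2 CPM, Slc6a11 at 8.16 to 10.6 CPM and Glul at 2.99 to 4.84 CPM. Gja1 was at 0.175 to 0.355 CPM, Gjb6 at 0.0458 to 0.12 CPM and Slc7a10 at 0.205 to 0.374 CPM. The astrocyte median of Gja1 was 2016 times its excitatory median, that of Slc1a3 was 157 times and that of Slc1a2 was 34.8 times. The 3 genes thus did not keep their astrocyte ratio in neurons.

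**Figure D4:**
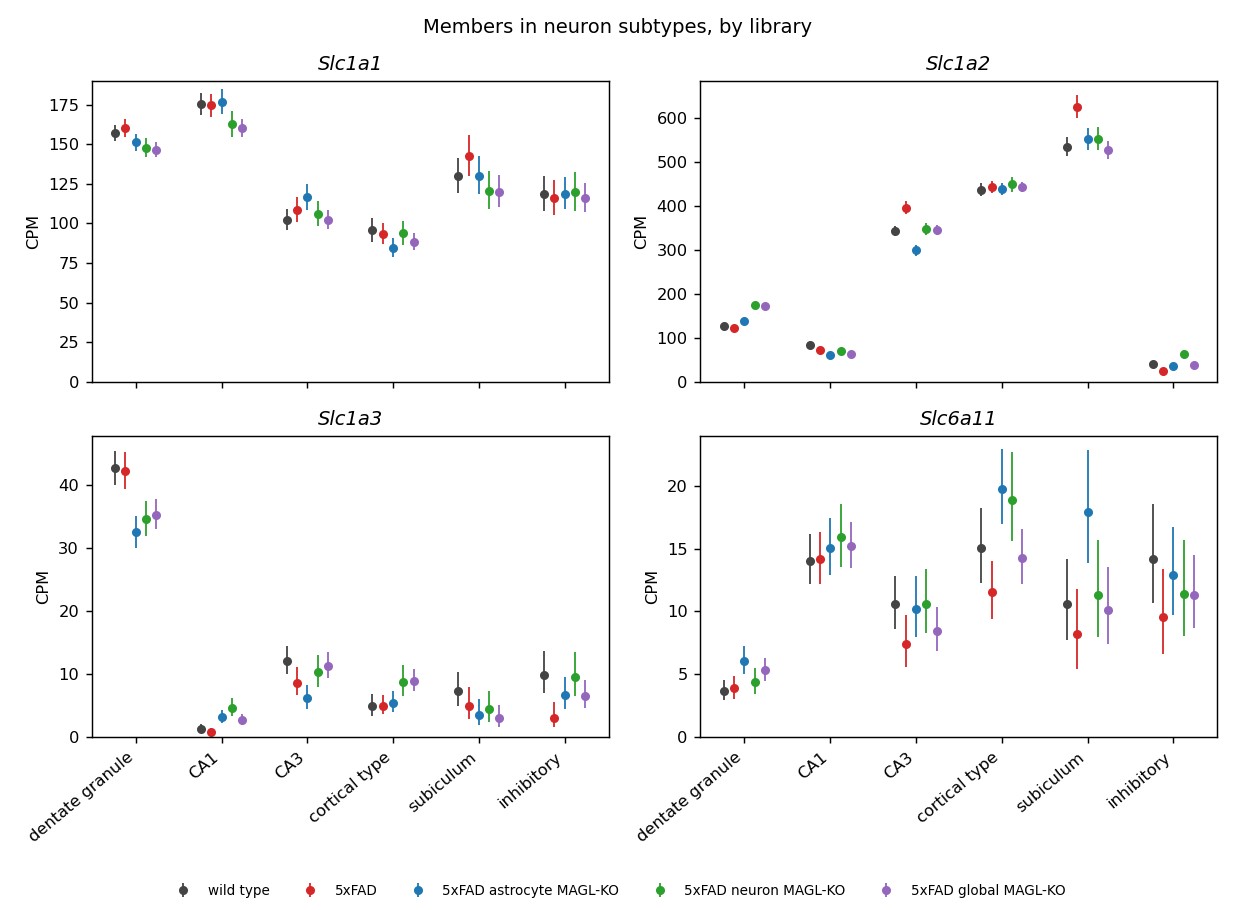
CPM (vertical axis, linear) of Slc1a1, Slc1a2, Slc1a3 and Slc6a11 in 5 kinds of excitatory neurons and in inhibitory neurons, 1 point for each library with its 95% Poisson interval. Among these kinds Slc1a2 is highest in the 1 cluster named as subiculum-like (526 to 624 CPM) and low in CA1 (61.9 to 84.3 CPM). Slc1a1 is highest in CA1 and dentate granule neurons, and Slc1a3 is highest in dentate granule neurons.

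Slc1a2 differed between kinds of excitatory neurons in the same order in each library. It was at 534, 624, 551, 552 and 526 CPM in the subiculum-like cluster, 437, 442, 438, 449 and 443 CPM in cortical-type clusters and 342, 395, 299, 347 and 345 CPM in CA3-like clusters. Dentate granule-like nuclei had 127, 123, 137.5, 174 and 171.5 CPM, and CA1-like nuclei 84.3, 73.3, 61.9, 70.2 and 63.4 CPM. The ranges of these 5 kinds did not overlap. The subiculum-like cluster (625 nuclei) held Xist and Y-linked UMIs together in 25.3% of its nuclei. Other clusters that scored highest as subiculum were left among the excitatory clusters without a subtype name. Those unnamed clusters together had Slc1a2 at 176 to 224 CPM. CA3-like nuclei fell into clusters with unlike levels of Slc1a2, with medians of 426 and 199 CPM over the libraries.

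Slc1a1 had another order. It was at 175.5, 174, 177, 163 and 160.1 CPM in CA1-like nuclei and 157, 160.3, 151, 148 and 147 CPM in dentate granule-like nuclei, and these ranges touch. Below them came the subiculum-like cluster (120.1 to 142 CPM), CA3 (102 to 117 CPM) and cortical-type neurons (84.7 to 95.6 CPM), whose ranges did not overlap each other. CA1-like nuclei were therefore lowest in Slc1a2 and highest in Slc1a1.

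Slc1a3 was at 42.7, 42.2, 32.6, 34.7 and 35.3 CPM in dentate granule-like nuclei and at most 12.1 CPM in the other named kinds, down to 0.76 to 4.63 CPM in CA1. Slc6a11 was lowest in dentate granule-like nuclei, at 3.68 to 6.05 CPM, and lay between 14.0 and 15.9 CPM in CA1-like nuclei. Dentate granule-like nuclei fell into 4 clusters, of which 1, led by Pappa, Penk and Acvr1c, made up 10.6%, 10.9%, 36.7%, 33.9% and 41.2% of them in the 5 libraries. Slc1a2 in that cluster was at 183, 156, 190.5, 275 and 252 CPM, and the other 3 clusters lay between 74.7 and 148 CPM. Slc1a3 ran the other way, with 39.6, 24.8, 22.2, 13.8 and 20.1 CPM in that cluster. The dentate values of the libraries labelled MAGL-KO thus move with the share of this cluster as well as with its own level, and the part of each was not tested.

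Aqp4 was seen in 1 neuron cluster above all others. This cluster of 366 nuclei, led by Plch1, Angpt1, Cd44, Fermt1 and Atp10a, was not given a subtype name, and it was singled out after its values were seen. Aqp4 was at 24.9, 24.5, 21.2, 31.3 and 20.8 CPM there, with 72, 55, 52, 26 and 57 UMIs, and in 36.8% to 46.3% of nuclei. The median was 8.45 times that of the next of 27 neuron clusters. Gja1 gave 0, 1, 1, 0 and 0 UMIs in the same nuclei, and 23.0% of them held both Xist and Y-linked UMIs.

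Between libraries, 6 of the 9 genes passed the count filter in excitatory neurons. None was past the fold between 5xFAD and wild type, beside 4.43% of all genes, with medians of -0.08 and -0.02. Slc1a3 was at -0.20 [-0.31, -0.09] and Slc6a11 at -0.20 [-0.35, -0.05]. In dentate granule-like nuclei, where Slc1a3 was highest, its levels in wild type and 5xFAD lay close together, as given above. Those nuclei made up 1553 of 3672 excitatory nuclei in wild type and 1297 of 3557 in 5xFAD. The part of this share in the Slc1a3 ratio was not tested. In astrocyte MAGL-KO 1 gene was past the fold, beside 21.5% of all genes, with medians of -0.01 and 0.24. This was Glul, with 381 UMIs against 239 and a log2 ratio of 0.70 [0.46, 0.94]. In neuron MAGL-KO none was past the fold, beside 20.9% of all genes, with medians of 0.06 and 0.21, and in global MAGL-KO none, beside 7.18%, with medians of -0.01 and 0.05.

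The median log2 ratio of all genes tested in excitatory neurons was 0.24 in astrocyte MAGL-KO and 0.21 in neuron MAGL-KO. CPM are shares of the class total, so this median does not measure a change in total RNA. TMM scaling lowered every log2 ratio by 0.20 in astrocyte MAGL-KO and by 0.17 in neuron MAGL-KO. With this scaling Glul in astrocyte MAGL-KO was at 0.50, no longer past the fold. Over 12 alternatives the Glul ratio lay between 0.30 and 0.93 and was past the fold in 10. After TMM scaling Slc1a2 was at -0.31 in astrocyte MAGL-KO and -0.13 in neuron MAGL-KO, and Slc1a1 at -0.25 and -0.22. Aqp4 in neuron MAGL-KO was at -0.45 [-0.83, -0.08] before and -0.62 after this scaling, which takes it past the fold. Of the 740 Aqp4 UMIs of excitatory neurons 262 came from the 366-nucleus cluster described above. In that cluster the log2 ratio was 0.35 [-0.38, 1.05], and in the other excitatory nuclei it was -0.31 [-0.77, 0.14].

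The inhibitory class (149 to 291 nuclei in a library) covers only part of the nuclei with inhibitory markers. It held a cluster of 863 nuclei led by Sst and Nxph1 and one of 158 led by Egfr, Ndnf and Reln. A cluster of 1199 nuclei led by Erbb4 and Nxph1 and one of 716 led by Vip also scored highest as inhibitory but were left unnamed, since excitatory genes scored nearly as high. Xist and Y-linked UMIs occurred together in 51.2% and 26.0% of their nuclei, beside 7.07% in the Sst cluster. In the named class Slc1a1 was at 116 to 119.7 CPM in the 5 libraries, a narrow range, and in the unnamed clusters at 122 to 129 and 86.8 to 111 CPM. Slc1a2 was at 40.7 CPM [34.5, 47.7], 25.3 [20.4, 31.1], 35.7 [30.3, 41.8], 62.8 [54.4, 72.0] and 38.0 [33.0, 43.5]. It was lowest in 5xFAD and highest in the library labelled neuron MAGL-KO. The remaining genes were low, with Glul at 6.16 to 12.4 CPM, Slc6a11 at 9.57 to 14.2 CPM and Slc1a3 at 3.10 to 9.91 CPM.

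In this class 4 of the 9 genes passed the count filter. Between 5xFAD and wild type 2 of the 4 were past the fold, beside 6.46% of all genes, with medians of -0.30 and 0.01. Slc1a2 was at -0.68 [-1.08, -0.30] and Glul at 0.76 [-0.03, 1.58]. Glul stayed past the fold in 3 of 10 alternatives, with a lowest value of 0.03 in nuclei with Y-linked UMIs. In astrocyte MAGL-KO none was past the fold, beside 14.7% of all genes, with medians of 0.34 and 0.15. In neuron MAGL-KO 1 was past it, beside 13.5%, with medians of 0.25 and 0.11. In global MAGL-KO 1 was past it, beside 6.93%, with medians of 0.12 and 0.02. Both were Slc1a2, with log2 ratios of 1.31 [0.94, 1.68] and 0.59 [0.22, 0.96], against the 5xFAD library that was lowest of the 5.

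The Slc1a2 UMIs of inhibitory neurons came from clusters with unlike levels and from few nuclei. A cluster led by Ndnf and Reln was at 105, 124, 103, 218 and 198 CPM, and a cluster led by Sst, Nxph1 and Sox6 was at 24.2, 13.0, 22.6, 35.1 and 11.9 CPM. In the Sst cluster of neuron MAGL-KO 3 nuclei held 55 of 97 UMIs. In Xist nuclei alone the log2 ratio between 5xFAD and wild type was 0.17, and without doublet removal that of global MAGL-KO was -0.13. The lower value in 5xFAD and the higher one in global MAGL-KO thus did not hold in every choice of nuclei. Each kept its sign in 10 of 11 alternatives and stayed past the fold in 7 and 4. The Slc1a2 ratio of neuron MAGL-KO kept its sign in 11 of 11 and stayed past the fold in 9, with a lowest of 0.34. All alternatives rest on the same 1 library in each group. With nuclei classed by highest marker score, without regard to clusters, no Slc1a2 ratio was past the fold: -0.28 for 5xFAD, and 0.25, 0.37 and 0.04 for astrocyte, neuron and global MAGL-KO. In the unnamed cluster led by Erbb4 Slc1a2 was at 158, 136, 167, 166 and 147 CPM, and in that led by Vip at 157, 127, 145, 166 and 129 CPM. 5xFAD was lowest in both, with smaller ratios between libraries than in the named class.

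The open chromatin of the same nuclei gave a readout that the choice of genes and the clustering did not use. Cut sites were summed over listed peaks within 250 bases before to 50 bases after each start, and scaled to 1000000 cut sites in peaks of the class. Peaks were listed for each library separately, and those over the starts were 0.77 to 0.99 kb long. At Slc1a1 the values had a lowest, median and highest of 32.2, 42.9 and 52.6 in oligodendrocyte precursors, 27.0, 34.5 and 41.7 in inhibitory neurons, 26.7, 29.6 and 37.2 in committed precursors and 21.9, 22.8 and 25.8 in excitatory neurons. Oligodendrocytes had 5.06 to 12.8 and astrocytes 0 to 8.78. The classes with Slc1a1 RNA were thus those with an accessible start, although committed precursors, highest in RNA, were not highest here.

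At Slc1a2 a peak was listed over the GENCODE start but not the RefSeq start. Its accessibility had a lowest, median and highest of 50.1, 80.9 and 140 in astrocytes and 29.2, 50.0 and 64.3 in oligodendrocyte precursors, 24.9 to 32.3 in inhibitory neurons and 22.3 to 24.6 in excitatory neurons. Slc7a10 had a listed peak in 3 libraries, with 48.1, 52.6 and 54.0 in astrocytes, 11.3 to 30.5 in oligodendrocyte precursors and at most 1.21 in neurons. Gjb6 had 10.8 to 30.1 in astrocytes and at most 3.89 in oligodendrocyte precursors. For these 3 genes astrocytes were the most accessible class by the median.

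Glul had median accessibility of 114 in astrocytes, 110.4 in oligodendrocytes and 108 in microglia. Oligodendrocyte precursors followed with 68.0, committed precursors with 46.5, inhibitory neurons with 45.8 and excitatory neurons with 22.0. Its RNA separated astrocytes from oligodendrocytes by a median of 3.23 times, while accessibility at its start had overlapping ranges of 96.6 to 144 and 90.4 to 115. Slc6a11 had 14.1 to 30.5 in astrocytes and 7.94 to 11.7 in oligodendrocyte precursors. Committed precursors had a lowest, median and highest of 0, 19.7 and 37.4 over 3 libraries, a range that spans that of astrocytes. Gja1 and Aqp4 had no listed peak over the start. Summed over all peaks of the gene body, Gja1 had 21.1 to 28.8 in astrocytes and at most 7.78 in any other class. Aqp4 had 51.6, 36.0, 43.9, 0 [0, 9.25] and 22.8 in astrocytes, from 44, 20, 20, 0 and 6 cut sites. Neuron MAGL-KO, highest in Aqp4 RNA at 505 CPM, thus had no cut site in the listed peaks of the gene body, which covered 1.59 to 2.57 kb and were listed for each library separately. Slc1a3 had a listed peak over the start in wild type alone, with 35.2 in astrocytes, 12.4 in oligodendrocyte precursors and 4.05 in excitatory neurons.

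**Figure D5:**
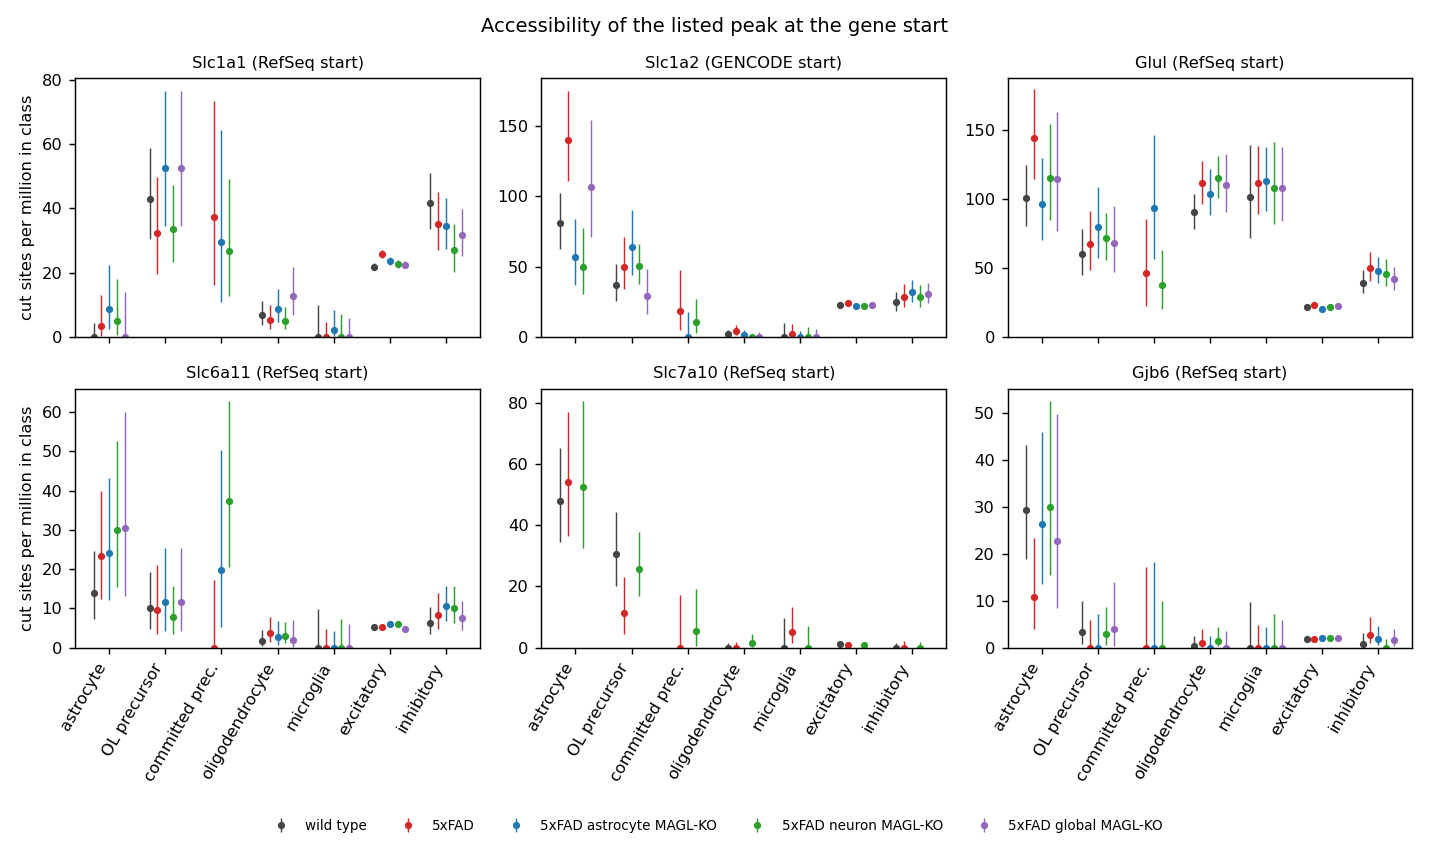
Cut sites scaled to 1000000 in peaks of the class (vertical axis, linear) in the listed peak at the start of 6 genes, by cell class and library, with 95% Poisson intervals. Slc1a1 is at 0 to 8.78 in astrocytes and 32.2 to 52.6 in oligodendrocyte precursors, whereas Gjb6 and Slc7a10 are highest in astrocytes and Glul is alike in astrocytes, oligodendrocytes and microglia.

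Short motifs were searched on both strands in the 250 bases before the start of the 8 genes that matched the RefSeq promoter table. For Slc1a2 this is the RefSeq start at chr2:102706438, which lies inside the GENCODE gene and had no listed peak. The bases before its GENCODE start were not searched. TTGGCA, a partial site of nuclear factor I, and ACAATG, a SOX motif, were in none of the 8, beside 12.3% and 10.7% of 32851 promoters. TATAAA was in Slc1a3, 161 bases before the start, on the strand opposite the gene, so the gene strand reads TTTATA there. The E-box CAGCTG was in Glul, 85 bases before the start. These motifs were in 12.4% and 13.0% of promoters. A match is a description of letters, not of binding.

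The 2 genes most alike to each gene in pattern were ranked by Pearson correlation of log2(CPM + 5) over 33 sums by class and library, among 13657 genes. The sums share libraries and classes, so the values are descriptions. They were Susd4 (0.96) and Tnr (0.95) for Slc1a1, Fgfr1 (0.97) and Boc (0.97) for Slc1a2, and Bmpr1a (0.96) and Nadk2 (0.93) for Slc1a3. For Glul they were St3gal4 (0.91) and Appl2 (0.91), for Slc6a11 Nwd1 (0.98) and Tspan7 (0.98), and for Slc7a10 Atp13a4 (0.99) and Gulp1 (0.99). Gja1 was most like Gli3 and Mlc1, Gjb6 most like Mlc1 and Grin2c, and Aqp4 most like Atp13a5 (0.96) and Gli3 (0.95). Among the 9 genes Gja1 and Gjb6 were the most alike (0.996), and Slc1a1 and Glul the most opposed (-0.865).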

How the data were processed

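Deposited data were filtered 10x Multiome matrices of 5 hippocampal libraries. They held UMI counts for genes and cut-site counts for peaks, as the authors deposited them with no normalization, made with Cell Ranger ARC 2.0.0 on mm10 and Seurat, per the submitters' processing notes. The members and lists were chosen with earlier results of these data known. Kept nuclei had 500 genes or more and no more than 5% mitochondrial UMIs. Likely doublets were removed as the expected share (0.8% for each 1000 nuclei) with the highest Scrublet score, since its automatic threshold marked 0, 2, 1, 0 and 2305 nuclei. Leiden clustering (scanpy 1.11.5, leidenalg 0.10.2, igraph 0.11.9, anndata 0.12.19) left out the members, and classes were named from marker lists without them. UMIs were summed by class and library and divided by the class total (CPM). Intervals were exact Poisson for levels, Clopper-Pearson for shares and conditional binomial for ratios (scipy 1.17.1, numpy 2.4.6, pandas 2.3.3). The ratio calculation was tested on simulated data. All 9 members were named, with the 2 most alike genes of each (genes with at least 200 UMIs) and the 2 highest and 2 lowest pathway genes of each astrocyte comparison. Some of these pathway genes are not reported here by name. Alternatives were scalings (edgeR 4.0.16 in R 4.3.3), filters, thinning, clusterings and subsets of nuclei.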

Additional observations from a re-analysis of the deposited data

How the results depend on the processing

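Counts of genes past 1.5-fold, over the 4 comparisons, were 2 of 32 values in astrocytes, 0 of 12 in oligodendrocyte precursors, 1 of 24 in excitatory neurons and 4 of 16 in inhibitory neurons. In astrocytes the count became 10 with nuclei classed by highest marker score, 1 with edgeR TMM (Aqp4 in global MAGL-KO was then at -0.57), 0 with log2(CPM + 5), 1 as a mean over nuclei, 5 thinned to 1000 UMIs, 1 without nuclei holding both Xist and Y-linked UMIs, 10 in Xist nuclei, 5 in nuclei with Y-linked UMIs and 5 with no count filter. In oligodendrocyte precursors it became 2 by marker score, 3 thinned, 1 in Xist nuclei and 8 with no filter. In excitatory neurons it stayed at 1 with edgeR TMM, but as Aqp4 in neuron MAGL-KO (-0.62) in place of Glul in astrocyte MAGL-KO (0.50), and became 0 with log2(CPM + 5), 6 thinned, 2 in Xist nuclei, 2 in nuclei with Y-linked UMIs, 5 with at least 20 UMIs and 6 with no filter. In inhibitory neurons it became 1 by marker score, 2 with log2(CPM + 5), 1 as a mean over nuclei, 11 thinned, 2 without nuclei holding both, 2 in Xist nuclei, 8 with at least 20 UMIs and 17 with no filter. Thinning, subsets of nuclei and looser filters rest on fewer UMIs by construction, and the cause of the other moves was not tested. The share of all genes past the fold was counted in the main setting only. The counts under the alternatives therefore have no background beside them and are not a result about these genes. By marker score 8 in place of 9 genes kept their highest class, as Glul was then highest in oligodendrocytes. The class of astrocytes made that way held 142 to 338 nuclei with 17775 to 19763 CPM of neuronal RNA. Of 943 single log2 ratios under an alternative, 801 stayed within the counting interval, 139 moved outside it and 3 of those past 1.5-fold reversed: Gjb6 in astrocytes of neuron MAGL-KO (-0.54 in nuclei with Y-linked UMIs, from 3 UMIs in 5 nuclei, with an interval that spans 0), and Slc1a2 in inhibitory neurons of global MAGL-KO (-0.13 without doublet removal) and of 5xFAD (0.17 in Xist nuclei). Counting ratios inside the fold as well, the sign differed from the reported one in 129 of the 943, of which 11 were past the fold the other way, such as Glul in astrocytes of 5xFAD (-0.59 in Xist nuclei). Leaving out excitatory clusters with Xist and Y-linked UMIs together in over 40% of nuclei, chosen after seeing the data, left the excitatory count at 1. The highest class by accessibility did not change with a window of 1000 bases for the 6 genes with a listed peak. No paired analysis was possible because there is 1 library in each group, and none could be left out. In astrocytes 28 to 70 nuclei stand behind each value, which limits the precision of the ratios.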

Other observations

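Further values of Glul and Slc1a3 came from mature oligodendrocytes and microglia. In mature oligodendrocytes (215 to 309 nuclei) Glul was at 125, 189.6, 188, 167 and 149 CPM, lowest in wild type, with a log2 ratio between 5xFAD and wild type of 0.60 [0.25, 0.96]. That ratio is past 1.5-fold. The share of all genes past the fold was not counted in this class, and the ratio was not recomputed under the alternatives. In microglia (43 to 122 nuclei) Slc1a3 was at 146 to 293 CPM with a median of 230 and Glul at 73.1 to 165 CPM. Slc1a3 in microglia, oligodendrocyte precursors and mature oligodendrocytes had overlapping ranges. Slc7a10 gave 0 UMIs in oligodendrocytes and in microglia of each library, and Gja1 and Gjb6 gave 0 UMIs in microglia.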
